A study of Mus musculus with 10 samples.

Results

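The RNA that MOV10 touches in the mouse testis was compared with the RNA the testis contains. The comparison used 7 of the 10 samples of the series, the 4 MOV10 CLIP-seq libraries (replicates 1, 2, 3 and 5) and the 3 RNA-seq libraries of wild type testes (replicates 1, 2 and 3), and its members were taken by their labels alone. All 7 came from wild type mice at postnatal day 21 (P21), which for the CLIP libraries is given by the study's text and not by their labels. This is an age at which the testis holds Sertoli and other somatic cells, spermatogonia, spermatocytes and the first round spermatids. The methods give a mixed 129 x C57BL/6 x FVB background for the mutant colony, and 1 RNA-seq sample was a pair of testes. For CLIP-seq the tissue was irradiated with ultraviolet light, MOV10 was pulled down with an antibody, and RNA was taken from the main radioactive band and from just above it. RNA-seq was made from polyadenylated RNA. The 3 Mov10-/- RNA-seq libraries of the series, from testes of the same age with part of the gene deleted, served only as an alternative reference and to bin genes by level. No CLIP library from Mov10-/- testes or with a control antibody was analysed here, so that RNA bound by MOV10 and RNA carried along cannot be told apart.

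MOV10 is an RNA helicase of the UPF1-like family. It moves along RNA, associates with UPF1, the central helicase of nonsense-mediated decay, and with the Argonaute proteins that carry microRNAs, and it restrains retrotransposons and retroviruses. Mature mRNA, which these proteins act on, consists of a coding stretch and a 3′ untranslated region (3′ UTR), where most regulatory protein and microRNA sites lie.

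Each file gives the number of reads counted on each of 55421 genes. CLIP libraries held 3404 to 4934 reads on genes and wild type RNA-seq libraries 7600909 to 9230540, so that 1 CLIP read stood for 203 to 294 RPM, the count scaled to 1e6 reads on genes. CLIP replicates 1, 2 and 3 differed by less than the sampling noise (chi-square over degrees of freedom of 0.219 to 0.237, against 1.63 to 1.93 in their comparisons with replicate 5) and were counted as 1 sample. CLIP therefore stands for 2 libraries, the mean of replicates 1 to 3 and replicate 5. The study made its libraries from the main band and a higher position on the gel, and the labels do not say which is which, so that gel position and replicate cannot be told apart and p-values measure only the spread between these libraries. With so few reads, genes were pooled into classes, and the measure was the share of reads a class took. An exact permutation test of 2 against 3 libraries (two-sided) cannot give a p below 0.2, which is the value wherever the CLIP and RNA-seq shares below do not overlap. The intervals printed are 95% Clopper-Pearson intervals of the pooled CLIP count divided by the wild type mean, and cover counting error only. The labels do not say whether libraries of a group came from separate animals. Testis identity was visible in the reference, where the spermatocyte gene Piwil1 had 289 ± 13.8 RPM (SD, n = 3). In CLIP, 9 of 35 spermatocyte markers had a read. Mov10 itself had 110 ± 14.8 RPM in wild type RNA-seq and 0 CLIP reads, where 0 of 8526 reads allows up to 352 RPM.

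RNA classes split into those near their RNA-seq share and those far above it. Nuclear protein-coding genes took 82.6%, 83.6% and 83.1% of the reads on genes in CLIP replicates 1 to 3 and 84.4% in replicate 5, against 95.7%, 94.5% and 95.6% in RNA-seq. The remainder of the CLIP reads lay mostly on ribosomal, spliceosomal and mitochondrial RNA and on long non-coding RNA. Processed pseudogenes (0.62% in CLIP, 0.567% ± 0.0559 in RNA-seq, SD, n = 3) and antisense RNAs (1.23% and 0.938% ± 0.207) had shares that overlapped between the assays (exact permutation p = 0.8 and 0.4). Most structural RNAs carry no poly(A) tail and are left out of RNA-seq by its selection step, so that for them binding to MOV10 and the selection in the reference cannot be told apart. Over all aligned reads, on genes or not (a total added after seeing the data), ratios were lower. They were 48.8 for spliceosomal, 30.4 for nuclear ribosomal and 11.5 for mitochondrial ribosomal RNA. For miRNA genes the ratio was 4.42, for mitochondrial mRNA 1.53, for antisense RNAs 0.164 and for processed pseudogenes 0.140.

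**Figure D1:**
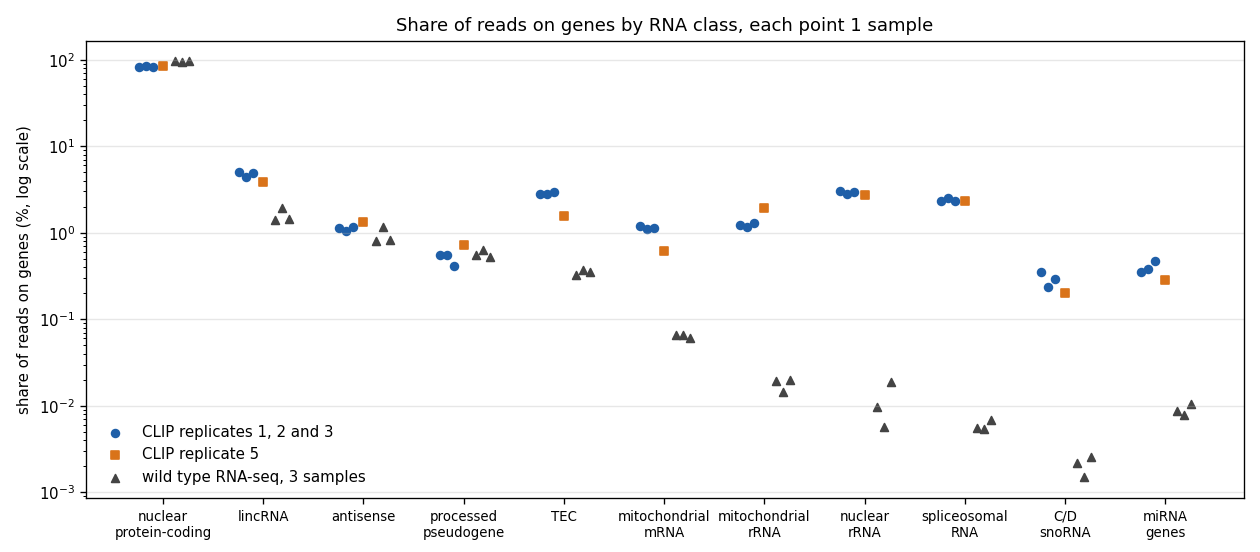
Share of the reads on genes taken by 11 RNA classes (vertical axis, percent, log scale) in each CLIP library (circles, replicates 1 to 3; square, replicate 5) and each wild type RNA-seq library (triangles). Antisense RNAs and processed pseudogenes lie at similar heights in both assays, whereas spliceosomal RNA lies near 2.37% in CLIP and 0.00591% in RNA-seq.

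Spliceosomal RNAs, the small nuclear RNAs (snRNAs) that pair with the ends of introns during splicing, stood furthest above RNA-seq among the larger classes. They took 2.31%, 2.54% and 2.32% of the reads in CLIP replicates 1 to 3 and 2.35% in replicate 5, against 0.00554%, 0.00541% and 0.00677% in RNA-seq. The ratio of the shares was 401 (interval 348 to 460). Of 1385 snRNA genes, 68 had a CLIP read. Since most of these genes have no descriptive name, each was aligned to a named mouse gene and assigned to a kind at an identity of at least 80%, a step added after seeing the data. U1, which pairs with the 5′ splice site, led with 50, 50, 46 and 50 reads in replicates 1, 2, 3 and 5, spread over 24 genes. U2, which pairs with the branch point, had 8, 10, 7 and 25 reads, U5 had 11, 10, 7 and 11, and U6, which forms the catalytic centre, had 11, 6, 7 and 21. Replicate 5 thus held more U2 and U6 than replicates 1 to 3 at a like number for U1 and U5. U7, which processes histone mRNA, and U11 of the minor spliceosome had 0 CLIP reads, and U12 had 1. A group of 798 genes that reached the identity with no named gene took 8 to 12 reads.

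A single gene took the largest part of the U1 reads. Gm22513 (ENSMUSG00000096349, chromosome 12, 54696782 to 54696945 of GRCm38, plus strand) is annotated as a 164-base snRNA and had 22, 22, 20 and 26 CLIP reads, with 5, 39 and 40 reads in the 3 far deeper RNA-seq libraries. Rnu1b1 (chromosome 3, 96359953 to 96360117, minus strand), the named gene used as the reference, had a mean of 0.667 CLIP reads in replicates 1 to 3 and 0 in replicate 5. All 4 named U1 genes had CLIP reads. Rnu1b2, identical to Rnu1b1, had 1, 0, 2 and 2, and Rnu1b6 had 1, 2, 0 and 0. Rnu1a1, also of 164 bases and 95.76% identical to Rnu1b1, had 0, 0, 0 and 1. Gm22513 was 96.36% identical to Rnu1b1 and was not aligned to Rnu1a1. The count files hold reads with 1 position in the genome, and reads placed more than once were left out. They made up 41.1% to 44.4% of the aligned reads in CLIP and 9.90% to 10.3% in wild type RNA-seq. Near-identical copies are therefore uncertain. Copies identical to a named gene could hold counts all the same, as Gm23971 did (identical to the U2 gene, 1, 1, 0 and 1 CLIP reads). The sequences below show, for U1 and U2, the named gene used as the reference and the copy with the most CLIP reads (GENCODE vM21 on GRCm38, 5′ to 3′). Capitals mark the bases of the copy that differ from the named gene in a global alignment.
Rnu1b1: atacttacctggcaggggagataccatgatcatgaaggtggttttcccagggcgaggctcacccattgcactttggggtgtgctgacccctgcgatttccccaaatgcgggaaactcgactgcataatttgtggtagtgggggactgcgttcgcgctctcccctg
Gm22513: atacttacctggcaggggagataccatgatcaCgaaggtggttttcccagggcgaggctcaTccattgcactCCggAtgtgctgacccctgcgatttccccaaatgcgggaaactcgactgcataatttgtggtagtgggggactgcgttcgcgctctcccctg
Rnu2-10: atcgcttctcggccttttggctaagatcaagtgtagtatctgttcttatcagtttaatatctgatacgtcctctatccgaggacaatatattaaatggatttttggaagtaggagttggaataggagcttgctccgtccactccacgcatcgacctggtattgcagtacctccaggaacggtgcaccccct
Gm25360: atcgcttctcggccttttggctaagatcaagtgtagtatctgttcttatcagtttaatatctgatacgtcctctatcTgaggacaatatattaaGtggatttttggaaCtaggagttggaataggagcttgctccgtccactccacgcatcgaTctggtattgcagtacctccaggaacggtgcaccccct

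Gm22513 differed from Rnu1b1 at 6 aligned positions, 1 of them a missing base, and had no difference at the 5′ end, which pairs with the 5′ splice site. Gm25360 (chromosome 1, 72226240 to 72226430, plus strand) differed from the U2 gene Rnu2-10 at 4 positions and had 3, 4, 3 and 11 CLIP reads, whereas Rnu2-10 had 0. How many of the excluded reads belonged to the main copies was not tested.

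Ribosomal RNA, nuclear and mitochondrial, was the other large non-coding part. Nuclear ribosomal RNA took 3.01%, 2.78% and 3.00% of the reads in CLIP replicates 1 to 3 and 2.76% in replicate 5, against 0.00963%, 0.00570% and 0.0187% in RNA-seq, a ratio of 251 (interval 219 to 282). Of 183 genes in this family only 5 had a CLIP read, and nearly all reads lay on neighbours on chromosome 17. Gm26917, annotated as a lincRNA (39843013 to 39846341, plus strand), had 102, 79, 84 and 93 CLIP reads. CT010467.1, annotated as rRNA on the other strand (39846353 to 39848827), had 17, 16, 17 and 41. Gm42418, which overlaps CT010467.1 on the plus strand, had 0 CLIP reads but 1054, 969 and 1252 reads in RNA-seq. The study's methods name a stranded kit for RNA-seq, but the strand setting of the counting is not given in the sources used here. Gm42418 lies within the bounds of CT010467.1 and both had RNA-seq reads, so that reads of genes overlapping on opposite strands are uncertain. Whether CLIP reads were counted on the strand of their RNA was not tested. That doubt extends to the CLIP counts of all genes and to the CLIP reads outside genes. The RNA-seq share of this family differed between the wild type libraries, and its ratio was 371 without wild type replicate 3, 201 without wild type replicate 2 and 102 against Mov10-/- RNA-seq.

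A gene pair that is not annotated as part of the ribosomal family shared sequence. The leucyl-tRNA synthetase gene Lars2, which charges mitochondrial leucine tRNA, had 3, 3 and 5 reads in replicates 1 to 3 and 22 in replicate 5, and 54.8 ± 13.4 RPM in RNA-seq. Gm15564, an antisense-class gene on another chromosome (chromosome 16), had 5, 3, 2 and 10 reads. Their annotated transcripts share a run of 52 identical bases, and reads that map to such a run are excluded or split by the counting, so that both genes are uncertain. Their part in the count of each other was not tested, and neither was whether reads on both came from ribosomal RNA.

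Mitochondrial transcripts, which are made from both strands of the mitochondrial genome, were above RNA-seq in every CLIP library. The rRNAs mt-Rnr1 and mt-Rnr2 of the mitochondrial ribosome together took 1.22%, 1.17%, 1.29% and 1.95% in replicates 1, 2, 3 and 5, against 0.0196%, 0.0143% and 0.0200% in RNA-seq, a ratio of 88.3 (interval 77.0 to 108). The large-subunit RNA mt-Rnr2 had 42, 35, 39 and 52 CLIP reads. The small-subunit RNA mt-Rnr1 had 6, 5 and 5 reads in replicates 1 to 3 and 44 in replicate 5. In RPM, mt-Rnr2 had 10760 and 10540 in the 2 CLIP libraries and mt-Rnr1 had 1485 and 8918. Mitochondrial mRNAs, most of which carry short poly(A) tails, took 1.19%, 1.11%, 1.15% and 0.608% in CLIP and 0.0658%, 0.0653% and 0.0609% in RNA-seq, a ratio of 13.7 (interval 10.2 to 16.4). For them too, binding and the selection in the reference cannot be told apart. Of the 13, 6 had a CLIP read. The complex I subunit genes mt-Nd5 (28, 22, 24 and 10 reads) and mt-Nd6 (15, 12, 12 and 7) led in replicates 1 to 3, whereas the cytochrome oxidase gene mt-Co1 led in replicate 5 (2, 1, 2 and 11). mt-Nd6 is the neighbour of mt-Nd5 on the opposite strand, and their ends overlap (11742 to 13565 and 13552 to 14070). The ratio of the mitochondrial mRNAs was 9.13 without mt-Nd5, 17.98 in replicates 1 to 3 alone and 9.498 in replicate 5 alone.

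Small RNAs of other kinds were sparse. C/D box snoRNAs, which guide methylation of ribosomal RNA, had 14, 8, 10 and 10 CLIP reads on 6 of 99 named genes, a share of 0.250% against 0.00209% ± 0.000554 in RNA-seq and a ratio of 120 (interval 73.1 to 180). Snord17 gave 7, 4, 4 and 5 of them and Snord13, which pairs with 18S ribosomal RNA, gave 5, 2, 4 and 2. H/ACA box snoRNAs, which guide pseudouridylation, had 0 CLIP reads on 42 genes. Their pooled share could still be up to 25.3 times that in RNA-seq, so that a difference from C/D snoRNAs was not tested. The 7SL, RNase P and RNase MRP RNAs and let-7 genes had 0 CLIP reads as well. The 7SK gene Rn7sk had 1, the Y RNA gene Rny1 had 3 and the vault RNA gene Vaultrc5 had 1 and 2 reads, nearly all in replicate 5.

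MicroRNA genes had 14, 13, 16 and 14 CLIP reads, 0.341% of the reads against 0.00896% ± 0.00139 in RNA-seq, and a ratio of 38.1 (interval 24.4 to 53.0). These reads lay on 16 of 2207 annotated genes, 8 of which matched the RefSeq table of mature miRNAs by symbol. Gm23935 led with 2, 3, 3 and 6 reads and was not among the 8. Without it the ratio was 28.4. The next were Mir466i, with 3, 2, 3 and 0 reads, and Mir6236, with 1, 1, 1 and 2. Their mature sequences (RefSeq, GRCm38) are shown because these were the genes with most CLIP reads among the 8 matched, with the seed, bases 2 to 8, in capitals. That of the first lies on chromosome 13 (17747552 to 17747573, plus strand) and that of the second on chromosome 9 (110281353 to 110281371, plus strand).
mmu-miR-466i-3p: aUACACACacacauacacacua
mmu-miR-6236: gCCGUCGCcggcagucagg
The miRNAs do not share a seed, and the first belongs to a run of alternating bases. Whether the reads on these genes came from mature miRNAs or from other RNA, such as ribosomal RNA, was not tested.

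As a share of the reads on genes, long non-coding RNAs were above RNA-seq, mostly through 1 gene. LincRNAs took 5.02%, 4.47%, 4.85% and 3.91% of CLIP reads and 1.42%, 1.91% and 1.42% of RNA-seq reads, a ratio of 2.75 (interval 2.44 to 2.99) that was 1.38 without Gm26917. Neat1, the scaffold of nuclear paraspeckles, had 6, 5, 5 and 2 CLIP reads and Malat1, a nuclear speckle RNA, had 3, 1, 2 and 4, at 87.0 ± 5.69 and 223 ± 42.2 RPM in RNA-seq. Transcribed regions still to be checked by the annotators (the class TEC) took 2.84%, 2.83%, 2.94% and 1.56% against 0.328%, 0.372% and 0.355%, a ratio of 6.30 (interval 5.17 to 6.94) spread over 150 of 3214 genes. Its leading gene, 9330162G02Rik, had 4, 4, 4 and 1 reads.  Sense-intronic RNAs, which lie within introns, took 0.285% against 0.0367% ± 0.00353, a ratio of 7.78, which was 11.1 in replicates 1 to 3, 4.42 in replicate 5 and 5.25 without Gm43331 (7, 5, 8 and 0 reads). All of these shares depend on which reads were counted: 82.2% to 90.9% of the CLIP reads that were placed on a gene or outside all genes lay outside, against 26.9% to 28.9% in wild type RNA-seq. Over all aligned reads (a total added after seeing the data) the ratios were below 1. They were 0.325 for lincRNAs, 0.165 for lincRNAs without Gm26917, 0.703 for TEC and 0.831 for sense-intronic RNAs. The direction for these classes thus depended on the total. The part of such reads in these classes was not tested.

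Within nuclear protein-coding genes, the share of CLIP reads followed the length of the 3′ UTR. The 21963 genes were divided into quartiles by the 3′ UTR of the annotated transcript with the longest coding sequence. Genes of the longest quartile (1721 bases or more) took 55.4%, 55.7% and 56.6% of the coding reads in CLIP replicates 1 to 3 and 52.0% in replicate 5, against 33.6%, 31.3% and 33.5% in RNA-seq. The CLIP libraries lay above all RNA-seq libraries, with a ratio of 1.64 (interval 1.60 to 1.67, exact permutation p = 0.2). The third quartile had a ratio of 0.849 (interval 0.818 to 0.89). The second had 0.576 (interval 0.55 to 0.618), and the shortest (232 bases or fewer) had 0.571 (interval 0.53 to 0.614), with 9.35%, 9.40%, 9.12% and 9.29% in CLIP against 15.6%, 17.8% and 15.4%. The longest quartile holds 39.0% of the exon bases of coding genes, so that its CLIP share of 53.9% was above its share of sequence, while its RNA-seq share of 32.8% ± 1.29 was below. In the shortest quartile the order was the reverse, with 9.29% in CLIP, 15.0% of exon bases and 16.3% ± 1.35 in RNA-seq. Over all aligned reads (a total added after seeing the data) every quartile had a ratio below 1. From the shortest to the longest these were 0.06135, 0.06332, 0.09202 and 0.1745, with the longest quartile still the highest.

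**Figure D2:**
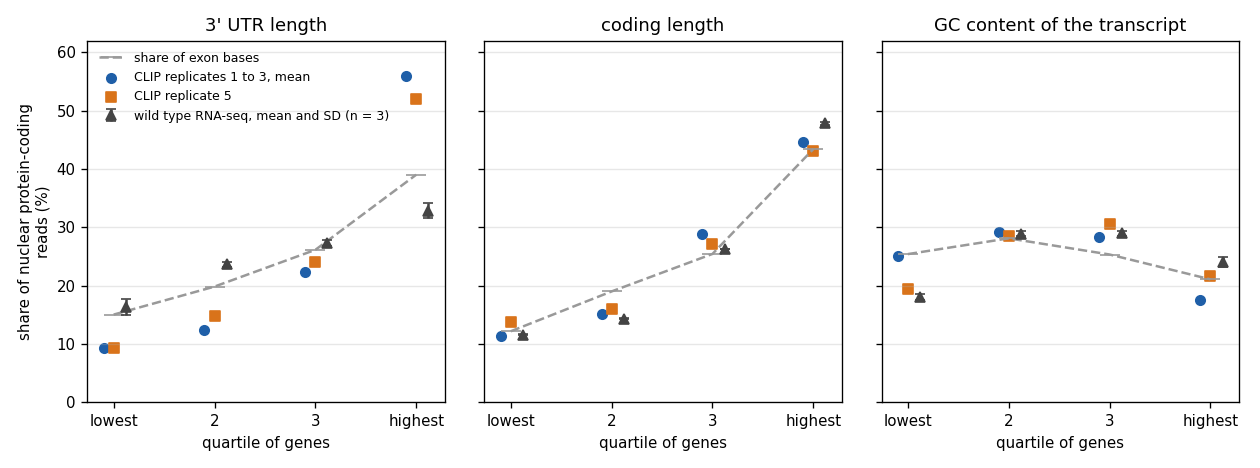
Share of the reads on nuclear protein-coding genes (vertical axis, percent) by quartile of genes for 3′ UTR length, coding length and transcript GC content, for the mean of CLIP replicates 1 to 3 (circles), CLIP replicate 5 (squares) and wild type RNA-seq (triangles, mean and SD, n = 3), with the share of exon bases (dashed line). CLIP points leave the other marks most in the longest 3′ UTR quartile, at 55.9% and 52.0%.

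Transcript length, of which the 3′ UTR is a part, gave the same order, with ratios of 0.585, 0.727, 0.869 and 1.28 from the shortest to the longest quartile. Relative to the shares expected from the 3′ UTR quartiles these were 1.00, 1.08, 0.919 and 1.02. The coding sequence showed no such order. Ratios were 1.09, 1.09 and 1.07 in the first 3 quartiles of coding length and 0.917 in the longest. Within each quartile of coding length the genes of the longest 3′ UTR quartile had a ratio of 1.96, 1.72, 1.70 and 1.51, from the shortest to the longest coding sequences, and those of the shortest 3′ UTR quartile 0.496, 0.480, 0.603 and 0.604. The order by 3′ UTR was also seen among genes of like level. Genes were grouped by their RPM in the Mov10-/- RNA-seq, which the ratio does not use (a split added after seeing the data). At 100 RPM and above, the longest 3′ UTR quartile had a ratio of 1.66 and the shortest 0.628. Between 10 and 100 RPM these were 1.53 and 0.510. GC content was weaker, with a ratio of 1.23 in the quartile of lowest GC, where replicates 1 to 3 gave 1.39 and replicate 5 gave 1.08, and 0.811 in that of highest GC. When each gene's expected share was set from the ratio of its 3′ UTR quartile, these became 1.02 and 0.998. The counts do not say where in a transcript a read lay, and the annotated 3′ UTR need not be the one used in testis.

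Coding genes that the testis hardly expresses held a small but raised share of the coding reads. Over all aligned reads (a total added after seeing the data) their ratio was 0.549, so that the direction depended on the total. The 6368 genes under 1 RPM in the Mov10-/- RNA-seq took 1.84% of coding reads in CLIP replicates 1 to 3 and 1.68% in replicate 5, against 0.341% ± 0.274 in wild type RNA-seq, a ratio of 5.17 (interval 4.28 to 6.10). Their wild type shares were 0.21%, 0.655% and 0.156%, and the ratio was 9.61 without wild type replicate 2 and 17.3 against the Mov10-/- RNA-seq that chose these genes. They hold 17.3% of the exon bases of coding genes. The reads fell on 111 of these genes, and the leading one was Pax1, a transcription factor of the axial skeleton, with 0, 1 and 1 reads in replicates 1 to 3 and 13 in replicate 5. Genes at 100 RPM or more took 58.7% of CLIP reads, 54.5% ± 0.441 of RNA-seq reads and 26.2% of exon bases. Most CLIP reads on coding genes therefore lay on genes that are well expressed in testis.

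Growth factor and morphogen genes and solute carriers had higher shares of the coding reads in CLIP. All family ratios are relative to the reads on nuclear coding genes. These made up 4.18% to 8.49% of all aligned reads in CLIP and 60.6% to 62.3% in wild type RNA-seq, so that over all aligned reads (a total added after seeing the data) growth factor genes had a ratio of 0.288, solute carriers 0.202, axon guidance genes 0.201 and homeobox genes 0.383. Receptors and ligands of growth factors and morphogens took 1.84%, 1.68%, 1.485% and 1.249% in CLIP and 0.552%, 0.450% and 0.564% in RNA-seq, a ratio of 2.80 (interval 2.23 to 3.31), with reads on 35 of 149 genes. Igf1r, the receptor of insulin-like growth factor 1, had 14, 11, 12 and 8 reads at 122 ± 38.8 RPM in RNA-seq. The lipoprotein receptor family member Lrp8, which binds reelin, had 9, 7, 5 and 8, and the bone morphogenetic protein receptor Bmpr2 had 11, 9, 8 and 3. Without Igf1r the ratio was 2.28. Relative to the share expected from the 3′ UTR quartiles of the members it was 2.37. Igf1r and Bmpr2 have annotated 3′ UTRs of 7267 and 8529 bases and Lrp8 one of 148.

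Solute carriers, the transporters of ions, metals and nutrients, took 3.10%, 2.97%, 3.18% and 2.71% in CLIP and 1.527%, 1.501% and 1.515% in RNA-seq, a ratio of 1.91 (interval 1.65 to 2.17) over 91 of 371 genes. The sulfate transporter gene Slc26a2 had 11 reads in replicate 5 and 11, 10 and 11 in the others, the magnesium transporter gene Slc41a2 had 7, 4, 4 and 5, and the iron importer gene Slc11a2 had 4, 5, 5 and 4. The family ratio was 1.72 without Slc26a2 and 1.71 relative to its 3′ UTR lengths. Axon guidance genes had a ratio of 1.70 (interval 1.26 to 2.54), with 1.11 in replicates 1 to 3 and 2.29 in replicate 5, led by Sema5a (4, 3, 5 and 8 reads). Homeobox genes had a ratio of 2.82 that came from Pax1, and 0.747 without it. Cadherins and protocadherins (ratio 1.02, interval 0.511 to 1.96), collagens and basement membrane genes (0.894, interval 0.657 to 1.28), zinc finger genes (1.09, interval 0.938 to 1.26), chromatin modifiers (1.02, interval 0.822 to 1.18) and ubiquitin ligases and proteases (0.96, interval 0.821 to 1.12) lay near 1. Leading genes of the last 3 were Zbtb20 (10, 10, 9 and 6 reads), the histone methyltransferase Nsd1 (10, 8, 9 and 6) and the ubiquitin protease Usp46 (7, 4, 3 and 13).

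**Figure D3:**
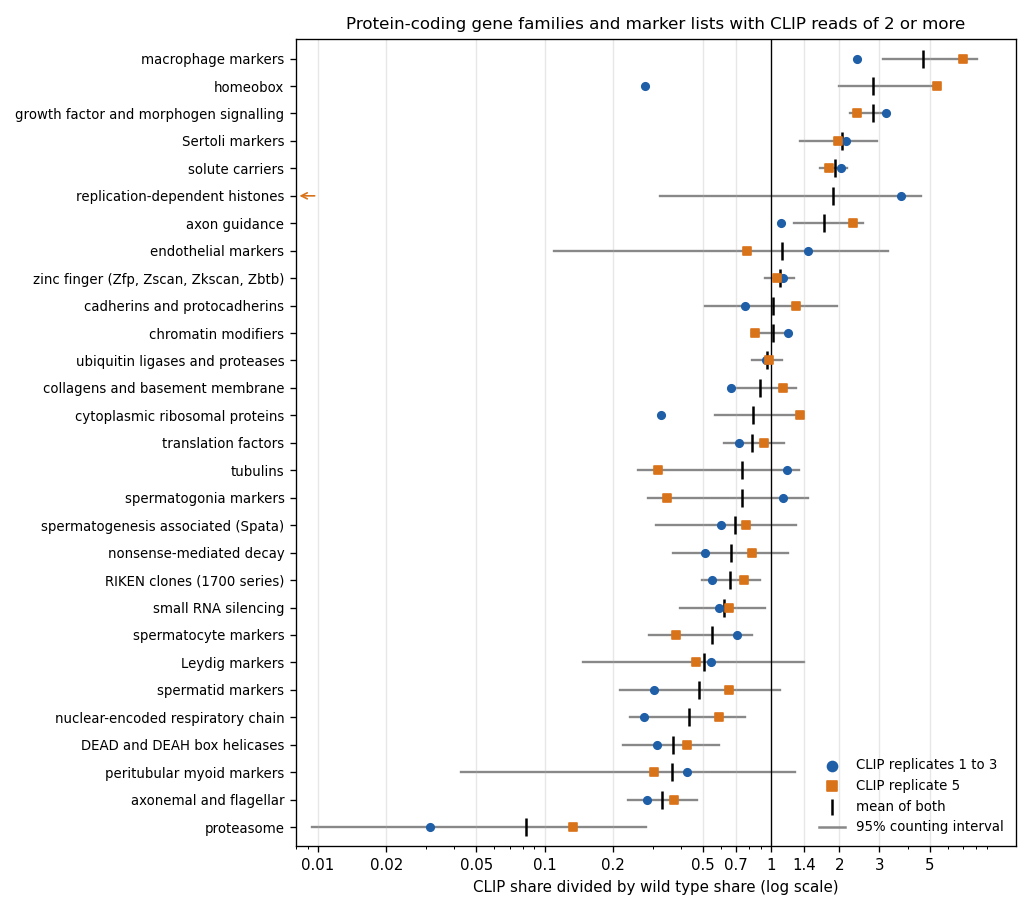
Ratio of the CLIP share to the wild type RNA-seq share (horizontal axis, log scale) for protein-coding families and marker lists with a pooled CLIP count of 2 or more, for CLIP replicates 1 to 3 (circles), replicate 5 (squares) and their mean (bars), with the 95% counting interval of the pooled count (lines; the arrow marks replicate 5 of the histone genes, with 0 reads). Proteasome and axonemal genes lie left of 1 in both CLIP libraries, at 0.0823 and 0.328 on average, and growth factor genes and solute carriers right of it.

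Genes of the cell's basic machines and of the sperm tail had lower shares. Proteasome subunits had 0, 1, 0 and 2 CLIP reads on 50 genes, a share of 0.0296% against 0.360% ± 0.0092 in RNA-seq and a ratio of 0.0823 (interval 0.00943 to 0.281), which was 0.0311 in replicates 1 to 3 and 0.134 in replicate 5. The 3 most expressed, Psme4 (332 ± 39.9 RPM), the activator that serves histone degradation in spermatids, Psmd2 (219 ± 11.4) and Psmc3 (138 ± 12.6), had 0 CLIP reads. That allows up to 352 RPM for a gene, so that no single one of them was shown to be lower.
Axonemal and flagellar genes took 0.337%, 0.454%, 0.424% and 0.528% in CLIP and 1.31%, 1.63% and 1.31% in RNA-seq, a ratio of 0.328 (interval 0.233 to 0.469). The axonemal dynein heavy chain Dnah8, the coding gene with the highest RPM in this family, had 2, 2, 2 and 5 CLIP reads at 876 ± 34.4 RPM. Its relative Dnah17 had 0 CLIP reads at 694 ± 60.4 RPM. The floor of 3 counts over both libraries puts it at least 1.97-fold lower in CLIP. That bound covers counting error only, for a gene named for its high RPM. In the edgeR fit without a filter 0 of 34491 genes were called lower, so that Dnah17 was not shown to be lower by a test. Relative to 3′ UTR lengths the family ratio was 0.454. DEAD and DEAH box helicases, the RNA helicases outside the family of MOV10, had a ratio of 0.370 (interval 0.221 to 0.588), with reads on 7 of 53 genes. Ddx6, a translational repressor and partner of the miRNA machinery, had 3, 2, 3 and 4 reads and Ddx17 had 2, 1, 1 and 5. Ddx19b had 0 at 262 ± 5.71 RPM, under the 352 RPM that 0 reads allow, so that it was not shown to be lower. Nuclear genes of the respiratory chain had a ratio of 0.432 (interval 0.238 to 0.763), which was 0.274 in replicates 1 to 3, 0.59 in replicate 5 and 0.647 relative to their 3′ UTR lengths. Sdha and Ndufs1, subunits of complexes II and I, had 0 CLIP reads at 157 ± 2.46 and 129 ± 2.67 RPM, and were not shown to be lower either.

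Translation genes did not show 1 direction. Cytoplasmic ribosomal proteins had a ratio of 0.327 in replicates 1 to 3 and 1.34 in replicate 5, and the mean of 0.832 (interval 0.566 to 1.36) was 0.386 without Rpl10, which had 2, 2, 2 and 10 reads. Rplp1 followed with 1, 0, 0 and 6. Translation factors had a ratio of 0.826 (interval 0.617 to 1.14), led by Eef1a1 (2, 2, 2 and 5 reads) and Eif4g2 (2, 2, 3 and 4). Of the pathways in which MOV10 is known to act, small RNA silencing had an interval below 1, and that of nonsense-mediated decay included 1. Nonsense-mediated decay genes had a ratio of 0.667 (interval 0.369 to 1.18), with Smg5 at 0, 2, 0 and 3 reads. Genes of small RNA silencing had 0.619 (interval 0.396 to 0.936), with reads on 11 of 28. Tnrc6b, the scaffold that joins Argonaute to deadenylases, had 3, 4, 3 and 4 reads and Cnot1, the scaffold of the deadenylase complex, had 0 at 486 ± 20.4 RPM.

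Marker lists of testis cell types had ratios on both sides of 1. Sertoli cells, the somatic cells that nurse the germ line, had a summed share of 0.337%, 0.559%, 0.354% and 0.384% in CLIP and 0.206%, 0.170% and 0.206% in RNA-seq, a ratio of 2.06 (interval 1.34 to 2.91). CLIP reads fell on 8 of 28 markers. Mro had 5, 5, 3 and 6, the tight junction gene Cldn11 had 3, 4, 3 and 2, and the hedgehog ligand Dhh had 1, 2, 2 and 2. The ratio was 1.38 without Mro, and 0.218 for the whole list over all aligned reads (a total added after seeing the data). Spermatocyte markers had a ratio of 0.545 (interval 0.290 to 0.824), with 0.709 in replicates 1 to 3 and 0.381 in replicate 5. Brdt, a testis bromodomain protein, had 0, 0, 2 and 3 reads, Msh5, a meiotic recombination protein, 3, 3, 3 and 0, and the cohesin gene Stag3 0, 0, 0 and 2 at 298 ± 18.8 RPM. Spermatid markers had 0.479 (interval 0.214 to 1.10; 0.304 in replicates 1 to 3 and 0.653 in replicate 5) with 4 of 35 markers read. Their RNA-seq share differed most between wild type libraries (0.184% ± 0.102), and the ratio was 1.19 against Mov10-/- RNA-seq. Spermatogonial markers had 1.13 in replicates 1 to 3 and 0.347 in replicate 5. Leydig, peritubular and endothelial lists rested on 4, 2 and 2 pooled reads. Macrophage markers had a ratio of 4.70 that came from Lyz2, the lysozyme gene (3, 4, 3 and 13 reads), and 0.630 without it. Of the other 16 macrophage markers 14 had 0 CLIP reads, Laptm5 had 0, 0, 1 and 1 and Mrc1 had 0, 0, 0 and 1. Whether these shares follow the cells in which MOV10 is made was not tested.

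Coding genes of the X chromosome, which is silenced in spermatocytes and transcribed in Sertoli cells and spermatogonia, took a larger share of the coding reads in CLIP. It was 4.57%, 4.40% and 4.49% in replicates 1 to 3, 3.00% in replicate 5 and 2.58%, 2.03% and 2.38% in RNA-seq, a ratio of 1.61 (interval 1.37 to 1.75). Replicates 1 to 3 gave 1.93 and replicate 5 gave 1.29. Relative to 3′ UTR lengths the ratio was 1.63. Over all aligned reads (a total added after seeing the data) it was 0.162. Within the X chromosome the genes of the longest 3′ UTR quartile had 2.75 (interval 2.20 to 3.08) and those of the shortest 0.907 (interval 0.606 to 1.43), with 0.531 in replicates 1 to 3 and 1.28 in replicate 5. Reads fell on 114 of 929 genes, led by Rpl10, the membrane proteolipid gene Gpm6b (9, 7, 8 and 4) and the ubiquitin ligase gene Huwe1 (7, 8, 7 and 4). Chromosome 7 had the lowest ratio of the autosomes, 0.718 (interval 0.644 to 0.788), with 5.61%, 5.13%, 5.38% and 4.97% in CLIP and 7.08%, 7.34% and 7.22% in RNA-seq. It was 0.81 relative to 3′ UTR lengths. The other autosomes lay between 0.865 and 1.18, and the Y chromosome had 1 to 3 reads a library.

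**Figure D4:**
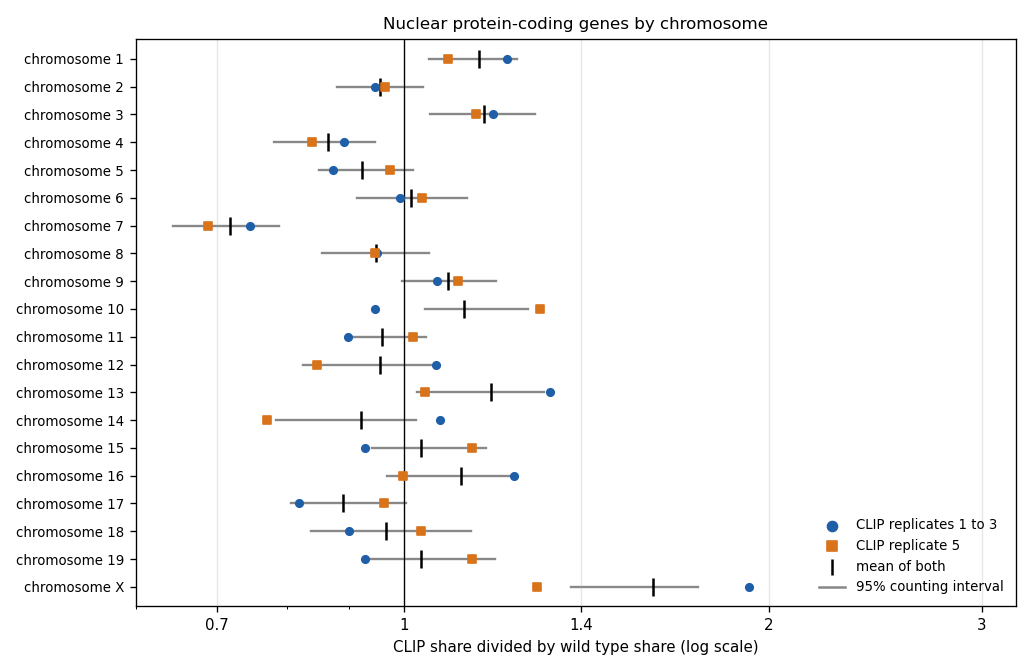
Ratio of the CLIP share to the wild type RNA-seq share of nuclear protein-coding reads (horizontal axis, log scale) for the autosomes and the X chromosome, for CLIP replicates 1 to 3 (circles), replicate 5 (squares) and their mean (bars) with the 95% counting interval (lines). The X chromosome lies furthest right, at 1.61, and chromosome 7 furthest left, at 0.718.

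Single genes were compared with the quasi-likelihood test of edgeR, with library totals as the offset and p-values adjusted by the Benjamini-Hochberg method. A filter on the mean of both assays at 500 RPM left 146 genes, of which 134 (91.8%) were higher in CLIP and 0 (0%) lower. Of the 146, 138 had under 500 RPM in wild type RNA-seq and passed through CLIP alone, so that nothing is read from that count. Of 34491 genes tested without a filter, 89 (0.258%) were higher and 0 lower, and 1049 and 130 had an unadjusted p under 0.05. A gene with 0 CLIP reads can still have up to 352 RPM, so that the depth left little room for a call in the lower direction. The 0 is therefore not read as a result. The split depended on the scaling: factors from the trimmed mean of M values gave 23 of the 146 filtered genes higher and 22 lower, and all mapped reads as the total gave 25 and 18 of the 146. The fit without a filter was not rescaled. The 89 genes comprised 56 nuclear coding genes (0.2939% of 19056 tested) and 3 mitochondrial coding ones (25% of 12). They also held 11 snRNAs (4.183% of 263), 4 TEC genes (0.2045% of 1956) and 3 antisense RNAs (0.1339% of 2241). Other classes had 1 or 2 each. The shares of TEC genes and antisense RNAs were below the 0.258% over all genes, and that of nuclear coding genes was near it. The 56 nuclear coding genes had a median annotated 3′ UTR of 2693 bases against 786 for the 19056 tested, and 62.5% of them against 26.01% were in the longest quartile. Their median coding length was 1566 bases against 1287, and their median GC content equalled that of all tested, 50.1%. The 56 were chosen by their CLIP reads, and calls depended on level. Of 3287 coding genes at 100 RPM or more in the Mov10-/- RNA-seq 32 were called (0.974%), against 1 of 3464 under 1 RPM (0.0289%). The 19056 are therefore not a set of like level, and these medians and percentages are a description only.

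The 10 nuclear coding genes with the smallest adjusted p in the filtered fit were chosen by that difference and passed the filter through CLIP, so that their values are a description. Without a filter their adjusted p in edgeR ranged from 0.00569 to 0.024, and Usp46, Cadm1 and Tcf20 came before Gas7, Nfat5 and Lars2. Mllt6, a partner gene of MLL fusions, had 14, 12, 12 and 24 CLIP reads and 1106, 804 and 1448 RNA-seq reads, a log2 difference of 5.04 ± 0.41 (SE). The proteoglycan gene Spock2 had 12, 12, 11 and 21 CLIP reads at 281 ± 14.3 RPM in RNA-seq (log2 difference 3.78 ± 0.33). Mgat5, an enzyme that branches N-glycans, had 16, 17, 22 and 12 (4.14 ± 0.40) and was the only gene of these with a lower count in replicate 5 than in each of the others. Adgrl1, a latrophilin receptor, had 11, 12, 10 and 17 (3.69 ± 0.38). Fads2, the delta-6 fatty acid desaturase, had 11, 11, 10 and 13 (3.98 ± 0.41). Syt7, a calcium sensor of exocytosis, had 8, 7, 8 and 17 (4.59 ± 0.50), with no annotated 3′ UTR in the transcript used. Slc26a2 followed (4.33 ± 0.50), then Gas7 with 7, 7, 7 and 18 (3.77 ± 0.44), Lars2 (5.75 ± 0.69) and the osmotic stress factor Nfat5 with 10, 10, 13 and 17 (3.34 ± 0.40). The count of Lars2 is uncertain because of the sequence it shares with Gm15564, and it need not stand for the mRNA. The annotated 3′ UTRs of Nfat5, Mgat5 and Gas7 are 8365, 5611 and 5539 bases long. In the lower direction the dynein heavy chain gene Dync1h1 had 0, 0, 0 and 3 CLIP reads at 786 ± 37.2 RPM (log2 difference -1.16 ± 0.75, edgeR adjusted p = 0.144), and Dnah8 had an adjusted p of 0.867 in edgeR's fit. Neither was called.

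**Figure D5:**
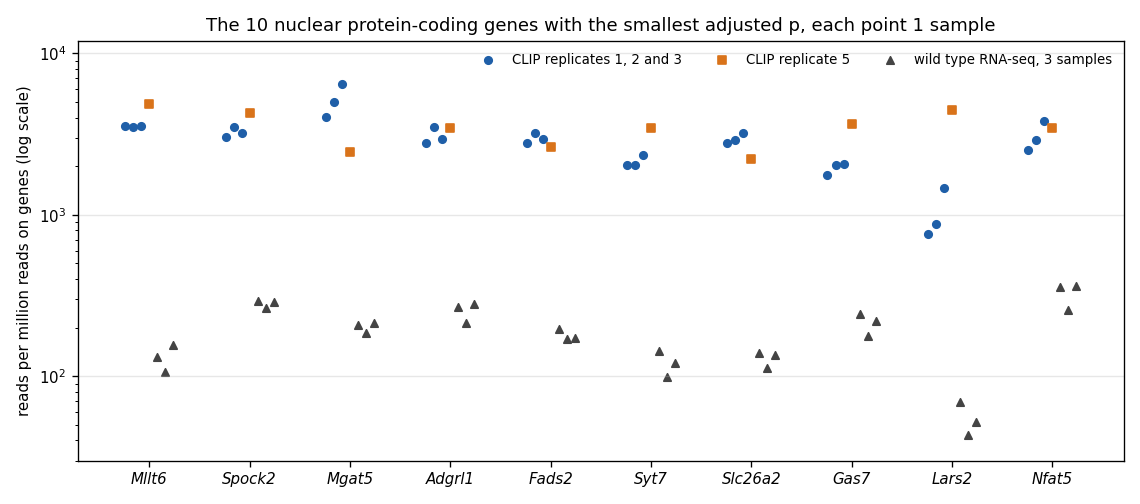
RPM (vertical axis, log scale) of the 10 nuclear protein-coding genes with the smallest adjusted p, in CLIP replicates 1 to 3 (circles), CLIP replicate 5 (squares) and wild type RNA-seq (triangles, 3 samples). CLIP values lie above RNA-seq values for each gene, which the choice of genes fixes, and Lars2 has the widest gap between the CLIP libraries, 3 to 5 reads against 22.

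The 2 CLIP libraries differed from each other in single genes. Replicate 5 held more of mt-Rnr1, Lars2, Pax1 and Lyz2 and of the signalling adaptor Ywhag (5, 3, 3 and 19 reads). Replicates 1 to 3 held more of mt-Nd5, Bmpr2 and Gm43331. With 1 library on each side no test of these gaps was made.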

How the data were processed

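MOV10 CLIP-seq (4 libraries) and wild type RNA-seq (3 libraries) of P21 mouse testis were analysed. The authors deposited raw read counts per gene. The submitters' processing notes name STAR, HTSeq and edgeR with the build mm10, and versions and strand setting are not given in the sources used here. The labels carry the RNA-seq extraction protocol for CLIP libraries as well. Rows for reads outside genes, ambiguous, not unique or not aligned (99.48% to 99.57% of CLIP reads not aligned, 26.5% to 30.3% in wild type RNA-seq) were left out of totals. Of 55421 gene identifiers, 55240 matched GENCODE vM21 (GRCm38), which gave names, classes and lengths. CLIP replicates 1 to 3 were averaged, then averaged with replicate 5. Class shares were compared with exact permutation tests (scipy 1.17.1, Python 3.11.15), and genes with edgeR 4.0.16 in R 4.3.3 at an adjusted p of 0.05, with DESeq2 1.42.0 as an alternative. snRNA alignments used Biopython 1.88. The edgeR fit was tested on simulated data. Members and lists were chosen with earlier results of these data known. Genes were named by a rule: up to 3 genes with most CLIP reads in a class, up to 3 with the highest RNA-seq level in a class with a lower share, and the 10 nuclear coding genes with the smallest adjusted p in each direction. Replicate numbers are shared by CLIP and wild type. Correlations of deviations were -0.009, 0.098 and 0.106 for equal numbers and -0.177 to 0.1 for unequal ones. CLIP replicates 1 to 3 differed by less than the sampling noise, so that these correlations cannot decide on a pairing. Those replicates were counted as 1 sample, and equal numbers were not treated as pairs. A sequence comparison for 1 further snRNA kind is not reported here.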

Additional observations from a re-analysis of the deposited data

Results flagged for a closer look

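Reads that the class shares do not use were frequent in CLIP. Reads outside genes made up 50.23%, 52.32%, 52.33% and 46.44% of the aligned reads in CLIP replicates 1, 2, 3 and 5, against 23.97% to 25.77% in wild type RNA-seq. Reads placed more than once made up 44.41%, 41.13%, 41.58% and 42.88%, against 9.90% to 10.3%. Both were picked out because they lie in data outside the main measurement and above the level in the reference libraries. With files that give only totals for these reads, what they align to was not tested.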

How the results depend on the processing

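Homeobox genes (0.7465 without Pax1, 0.2776 without CLIP replicate 5) and macrophage markers (0.6299 without Lyz2) crossed a ratio of 1. Chromosome 10 (0.946 without replicate 5), the shortest coding length quartile (0.986 without replicate 5) and, with all reads on genes as the total, the first 3 coding length quartiles (0.957, 0.956 and 0.937) and genes at 100 RPM or more (0.947) crossed it as well. So did classes whose interval includes 1, among them processed pseudogenes, chromatin modifiers, ribosomal proteins and the spermatogonia, spermatid and endothelial lists. The cause was not tested. Counts of genes moved most: higher in CLIP were 23 with TMM factors, 25 with all mapped reads as the total, 89 with at least 10 reads in each assay, 305 at 250 RPM and 89 without a filter, and lower were 22, 18, 0, 3 and 0, with 1 when replicates 1 to 3 were summed. DESeq2 called 135 of the 146 filtered genes higher and 0 lower. Leaving out 1 library gave 128 to 156 higher and 0 lower, with the filter applied anew. The number tested changed with the filter, from 146 in the main fit to 34491 without one. Of the 146, 138 passed through CLIP alone, so that nothing is read from the filtered counts or their likeness between settings. With a replicate block, CLIP replicates 1 to 3 against wild type gave 175 higher, and 175 without the block (added after seeing the data). Both fits take as 3 samples the replicates that were counted as 1 sample above, so that these counts are not read as a result. Against Mov10-/- RNA-seq the ratios were 882.1 for U1, 292.1 for snRNA, 61.5 for mitochondrial rRNA, 102.4 for nuclear rRNA and 0.6186 for the shortest 3′ UTR quartile. Without the leading gene they were 324.4 for snRNA, 289.1 for nuclear rRNA and 9.127 for mitochondrial mRNA. With the other denominator (nuclear coding reads for RNA classes, all reads on genes for coding classes) they were 285.7 for nuclear rRNA, 1.444 for the longest and 0.5025 for the shortest 3′ UTR quartile. With 4 equal CLIP libraries the longest 3′ UTR quartile had 1.674 and the X chromosome 1.764. Replicate 5 alone (added after seeing the data) gave 108.4 for mitochondrial rRNA, 9.498 for mitochondrial mRNA, 1.585 for the longest 3′ UTR quartile and 1.287 for X. Without it they were 68.23, 17.98, 1.703 and 1.925. With each library left out in turn the ratio ranged from 200.6 to 371.1 for nuclear rRNA, 68.23 to 93.69 for mitochondrial rRNA, 13.41 to 17.98 for mitochondrial mRNA, 1.607 to 1.703 for the longest 3′ UTR quartile, 1.51 to 1.925 for X and 0.2776 to 2.904 for homeobox genes. The depth of CLIP, 3404 to 4934 reads, limits statements to classes and to the genes with most reads.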
